A study of Ovis aries with 32 samples.

Results

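The genes IKBKB, NFKBIA, PELI1 and BIRC2, which encode 4 parts of the NF-kB pathway, were followed in the sheep middle cerebral artery (MCA) with and without phenylephrine (PHE), an agonist of the alpha-1 adrenergic receptor (Alpha1AR). They were chosen by name, with earlier results of these data known, and they are represented by 5 of the 15008 probes of the array: 1 probe each for IKBKB, NFKBIA and PELI1, and 2 for BIRC2. NFKBIA was named by the array file as well as by the study's list of altered genes. IKBKB, PELI1 and both BIRC2 probes were named solely through that list, by finding the probe whose group means it prints, so these names exist because the study listed the genes as altered at 1 or more ages. The list's means matched at all 4 ages for IKBKB and NFKBIA, and in the premature fetus and the newborn lamb for PELI1. The study thus lists NFKBIA as altered in the adult too, where it did not pass here with the main setting.

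MCA segments were held in tissue baths and had either no treatment or 30 min of PHE at 10 µM, and total RNA was hybridised to 1-colour arrays, 4 for each of 8 groups and 32 in all. How long untreated segments stayed in the bath is not stated. Whether treated segments were in the bath for longer is therefore not known, and PHE and bath time may not be separable. The labels give the ages as a gestation of 96 days (premature fetus) or 146 days (near-term fetus), 12 h after birth (newborn lamb) and 2 years (adult sheep), while the methods text gives other ages for the newborn lamb and near-term groups and a range that includes the labelled age for the adult. The adult sheep were not pregnant, and 4 animals were used for each experiment. It is not stated whether same-numbered segments of an untreated and a treated group came from a single animal. Each segment is a whole vessel wall, so that fewer cells of a type and less RNA per cell cannot be told apart.

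NF-kB transcription factors are held in the cytoplasm by inhibitor proteins of the IkB family. The kinase IKK-beta, the product of IKBKB, marks the inhibitor IkB-alpha, the product of NFKBIA, for destruction, after which NF-kB enters the nucleus; NFKBIA is itself switched on by NF-kB, which restores the inhibitor. PELI1 and BIRC2 encode ubiquitin ligases that act between cell surface receptors and the kinase, PELI1 after Toll-like and interleukin-1 receptors and BIRC2 after receptors of the tumour necrosis factor family. In vessel walls the pathway is known for switching on cytokines, chemokines and adhesion molecules.

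A level below is the log2 of the ratio of a probe's signal to its array's 75th percentile, so that 0 is the signal of a probe at that percentile; levels are compared within a probe and never between probes. A gene passed at a Benjamini-Hochberg adjusted p under 0.05 in limma, fitted to all 32 arrays with 1 spread per probe, with a change of at least 1.5-fold. The near-term arrays differed most in brightness, with a 75th percentile from 124.3 to 1669.4 against 639.0 to 985.4 in the premature fetus, and near-term untreated replicate 4 was the dimmest array, at 1.41 times its background. The median SD between arrays of a group was 0.48 (log2) in the near-term fetus, 0.29 in the adult, 0.21 in the newborn and 0.18 in the premature fetus, so the shared spread is wider than the premature arrays' own and narrower than the near-term arrays' own. Premature and newborn arrays each filled 1 slide of their own and were scanned on 1 day, and near-term and adult arrays lay on 3 further slides scanned on another, so age and slide cannot be told apart across those sets. At every age the PHE-treated arrays lay in row 2 of their slide. Untreated arrays lay in row 1, except near-term untreated replicate 1, which lay in row 2 of another slide. Apart from that array, treatment and slide row cannot be told apart.

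IKBKB, the kinase gene, was higher with PHE at all 4 ages, and at each age the lowest PHE-treated array lay above the highest untreated one. In the premature fetus its level was -1.31, -1.34, -1.53 and -1.45 on the untreated arrays and 1.19, 1.21, 1.26 and 0.87 on the PHE-treated arrays. The groups were far apart beside the spread within each, and IKBKB rose by 2.54 (log2, SE 0.23, adjusted p = 8.9e-09, limma), a 5.83-fold change. In the near-term fetus the untreated arrays read 0.12, -0.10, 0.30 and -0.37 and the PHE-treated arrays 1.39, 1.5, 0.40 and 1.59. PHE replicate 3 stood close above the highest untreated array while the other 3 were well clear of it, and the change was 1.23 (SE 0.23, adjusted p = 0.00021, limma). That call was lost when the near-term arrays were fitted alone (adjusted p = 0.15) and when arrays were weighted by their scatter, which also lowered the change to 0.72.

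In the newborn lamb IKBKB read -0.96, -0.76, -0.75 and -0.88 untreated and 1.18, 0.96, 1.18 and 1.13 with PHE. Both groups were even, with an SD of 0.10 in each, and the rise was 1.95 (SE 0.23, adjusted p = 1.8e-06, limma). In the adult sheep it read 1.30, 1.09, 0.81 and 1.02 untreated and 2.68, 1.43, 2.38 and 2.05 with PHE. Adult PHE replicate 2 lay just above the untreated arrays, and IKBKB rose by 1.08 (SE 0.23, adjusted p = 0.0043, limma), a call that was lost when arrays were scaled to their median (adjusted p = 0.16) and when the adult arrays were fitted alone (adjusted p = 0.16).

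NFKBIA, the inhibitor gene, had the largest fitted PHE effect of the 4 genes in both fetuses and in the newborn lamb. In the premature fetus it read 1.10, 1.02, 0.94 and 1.19 untreated and 5.02, 5.80, 5.27 and 5.11 with PHE. The lowest treated array was far above the highest untreated one, and NFKBIA rose by 4.24 (SE 0.33, adjusted p = 7.0e-10, limma), an 18.8-fold change. In the near-term fetus it read 2.27, 2.50, 2.66 and 1.98 untreated and 3.77, 3.99, 4.43 and 5.44 with PHE. The groups did not overlap and the change was 2.05 (SE 0.33, adjusted p = 4.5e-05, limma), which did not pass when the near-term arrays were fitted alone (adjusted p = 0.079). In the newborn lamb it read 1.42, 1.25, 1.95 and 1.12 untreated and 3.56, 4.13, 4.06 and 3.60 with PHE. The groups were again separate, and NFKBIA rose by 2.40 (SE 0.33, adjusted p = 1.3e-05, limma).

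In the adult sheep NFKBIA read 2.70, 2.52, 2.57 and 2.88 untreated and 4.53, 2.59, 4.18 and 3.87 with PHE. Adult PHE replicate 2 lay among the untreated arrays and the other 3 lay above them, so the groups overlapped. The change of 1.12 (SE 0.33, 95% interval 0.45 to 1.80) did not pass in limma (adjusted p = 0.055), and a two-sided exact permutation test of the 8 adult arrays gave p = 0.086, where the smallest p possible is 0.029. This value sits at the threshold: estimating limma's prior spread from the tested probes alone, in place of all probes, gave an adjusted p of 0.042, which passes, and both settings had been run before the first was kept. Without adult PHE replicate 2 the change was 1.53 (adjusted p = 0.00095, limma), and it also passed with array weights (adjusted p = 0.0055) and when the fit omitted replicate 4 of the untreated near-term arrays (adjusted p = 0.0498), replicate 1 of the treated ones (0.039) or replicate 4 of those (0.021).

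**Figure D1:**
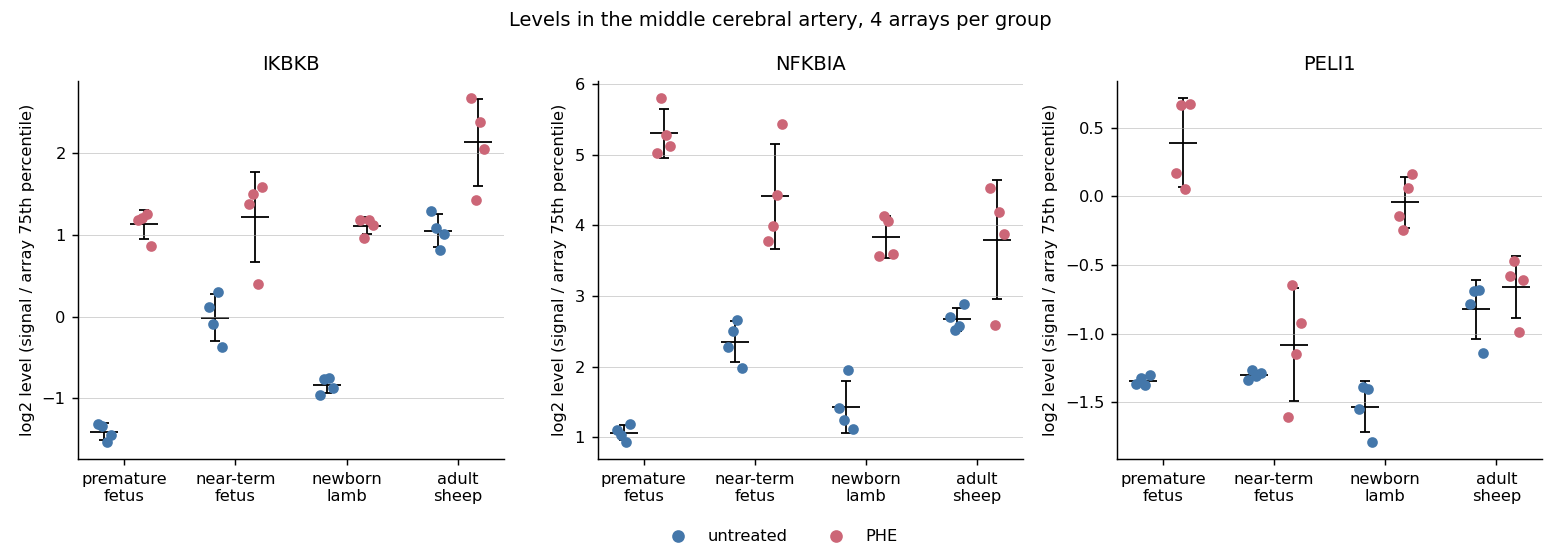
Levels of IKBKB, NFKBIA and PELI1 on each of the 32 arrays (y axis, log2 of the signal over the array's 75th percentile) by age, with untreated arrays in blue and PHE-treated arrays in red; bars are the mean and SD of 4 arrays. IKBKB is separated by PHE at all 4 ages, NFKBIA at all but the adult, and PELI1 in the premature fetus and the newborn lamb.

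PELI1, the ligase gene that acts after Toll-like receptors, was higher with PHE in the premature fetus and the newborn lamb, while its near-term groups and its adult groups overlapped. In the premature fetus it read -1.37, -1.32, -1.37 and -1.30 untreated and 0.17, 0.67, 0.05 and 0.67 with PHE. The untreated arrays had an SD of 0.03, and PELI1 rose by 1.73 (SE 0.18, adjusted p = 1.2e-07, limma). In the newborn lamb it read -1.55, -1.39, -1.40 and -1.79 untreated and -0.15, -0.24, 0.06 and 0.16 with PHE. Here too every treated array lay above every untreated one, and PELI1 rose by 1.49 (SE 0.18, adjusted p = 3.3e-06, limma).

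In the near-term fetus PELI1 read -1.34, -1.27, -1.31 and -1.29 untreated and -1.61, -0.64, -1.15 and -0.92 with PHE. Replicate 1 of the treated arrays was the lowest of the 8 and the other 3 treated arrays were above all untreated ones, and the change was 0.22 with a 95% interval from -0.16 to 0.60 (adjusted p = 0.36, limma). In the adult sheep it read -0.78, -0.69, -0.68 and -1.14 untreated and -0.58, -0.47, -0.99 and -0.61 with PHE. The change was 0.16 with a 95% interval from -0.22 to 0.54 (adjusted p = 0.84, limma), so at these ages a rise of the size seen in the premature fetus lies outside the interval.

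BIRC2, the ligase gene of the tumour necrosis factor receptors, had 2 probes whose levels did not move together, with a Pearson r of -0.04 over the 32 arrays. The brighter probe is the one whose means matched the study's list in the premature fetus and the newborn lamb, and the second probe is the one matched in the near-term fetus. No PHE effect on either probe passed in limma with all arrays and the main setting, although some effects passed under other settings, and 2 of the 5 tested, those of the brighter probe in the premature fetus and the adult, had an unadjusted p under 0.05. The brighter probe was well above background on 29 of 32 arrays, with 3 of the 4 near-term untreated arrays below that mark.

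The brighter probe read -3.54, -2.45, -2.44 and -2.52 in the untreated premature fetus and -1.80, -1.22, -1.09 and -0.98 with PHE. All 4 treated arrays lay above all untreated ones, and the change was 1.46 (95% interval 0.08 to 2.85, adjusted p = 0.14, limma with all arrays). The spread of this probe, taken over all 8 groups, was set largely by other ages, and with the premature arrays alone the same change passed (adjusted p = 0.0039, limma), as it did with array weights over all arrays (1.39, adjusted p = 0.0024). In the newborn lamb it read -3.78, -2.66, -3.03 and -3.06 untreated and -2.93, -2.08, -1.84 and -1.61 with PHE. The groups overlapped through treated replicate 1, and the change of 1.02 did not pass with all arrays (adjusted p = 0.41) but did with the newborn arrays alone (adjusted p = 0.049, limma). Replicate 1 was the lowest array of both groups. Each of the 4 treated arrays lay above the untreated array of the same number, by 0.59 to 1.44.

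In the adult sheep the brighter probe read -5.29, -3.74, -3.44 and -4.01 untreated and -4.31, -1.42, -3.05 and -1.49 with PHE. Treated replicate 1 lay within the untreated range, and the change was 1.55 (95% interval 0.17 to 2.94, adjusted p = 0.31, limma), which passed with array weights (1.90, adjusted p = 0.016). In the near-term fetus it read -6.73, -1.91, -4.90 and -3.48 untreated and -3.27, -3.52, -3.24 and -2.88 with PHE. The untreated arrays spanned the treated ones, so the change of 1.03 (adjusted p = 0.23, limma) has no settled direction. With normexp background correction it was -1.54 and passed (adjusted p = 0.0038, limma). Without untreated replicate 2 it was 1.81 and passed (adjusted p = 0.021, limma), but none of the untreated arrays left was well above background. That last value is therefore no measured change.

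The second BIRC2 probe was well above background on 19 of 32 arrays and was bright enough to be tested in the near-term fetus alone. There it read -4.39, -4.80, -5.86 and 0.42 untreated and -0.61, -3.33, -3.90 and -3.03 with PHE. Untreated replicate 4, the dimmest array, carried 93.0% of the summed linear signal of the untreated arrays, and treated replicate 1 carried 69.3% of that of the treated arrays. The change on the log2 scale was 0.94 (SE 0.91, adjusted p = 0.43, limma). It was 2.30 and passed without untreated replicate 4 (adjusted p = 0.010), and it was -3.14 and passed with slide as a fixed block (adjusted p = 0.014), where the treated arrays are set against untreated replicate 4 alone, the single untreated array on their slide. In the other groups its level lay between -7.64 and -3.21, with 0 to 3 of 4 arrays well above background.

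**Figure D2:**
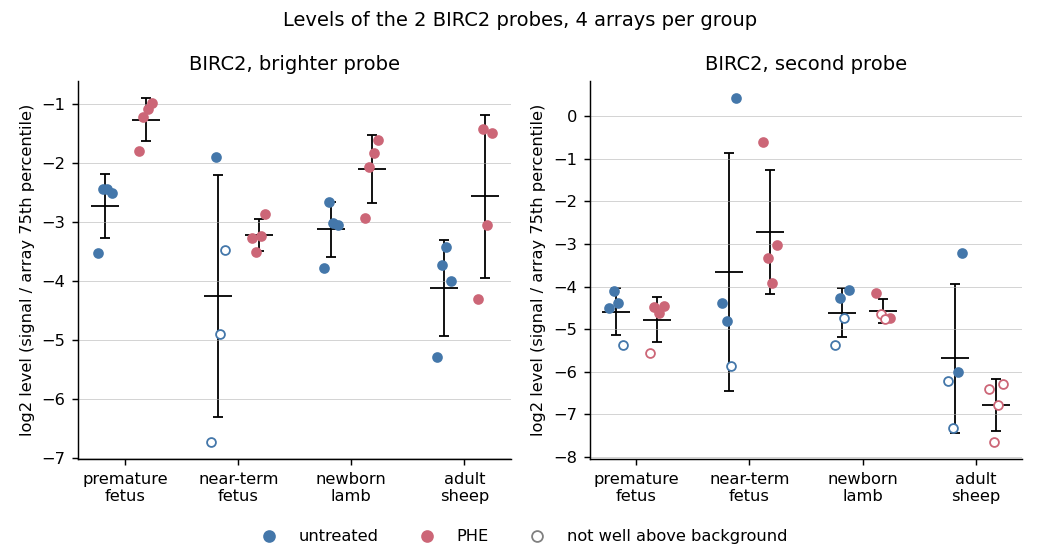
Levels of the 2 BIRC2 probes on each array (y axis, log2 of the signal over the array's 75th percentile) by age and treatment, with open points for arrays on which the probe was not well above background; bars are the mean and SD of 4 arrays. The brighter probe separates the premature groups, and near-term untreated replicate 4 stands at 0.42 on the second probe, above every other array.

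Read against the array as a whole, 3 of the 4 genes rose with PHE in the premature fetus, where 8.43% of the 9818 genes and unnamed probes tested rose. In the newborn lamb the same 3 genes, IKBKB, NFKBIA and PELI1, rose, where 5.3% of 9468 did. In the near-term fetus IKBKB and NFKBIA rose, where 17.1% of 9598 did, and in the adult sheep IKBKB rose, where 2.67% of 9293 did. Since 3 of the genes carry a name because the study listed them as altered, these counts are no evidence about NF-kB genes in general.

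Within a slide, the near-term comparison rests on 1 untreated and 4 treated arrays and the adult comparison on 2 and 4. There the near-term change was 1.59 for IKBKB, 2.43 for NFKBIA, 0.21 for PELI1 and 0.25 for the brighter BIRC2 probe. The adult change within a slide was 0.94, 1.18, 0.07 and 1.95 for the same probes. The direction was that of all arrays for IKBKB, NFKBIA and PELI1 at both ages and for the brighter BIRC2 probe in the adult. The near-term value of that probe was set against 1 untreated array on which it was not well above background, so it shows no direction. The second BIRC2 probe changed by -3.14 within the near-term slide, opposite in sign to its 0.94 over all arrays.

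**Figure D3:**
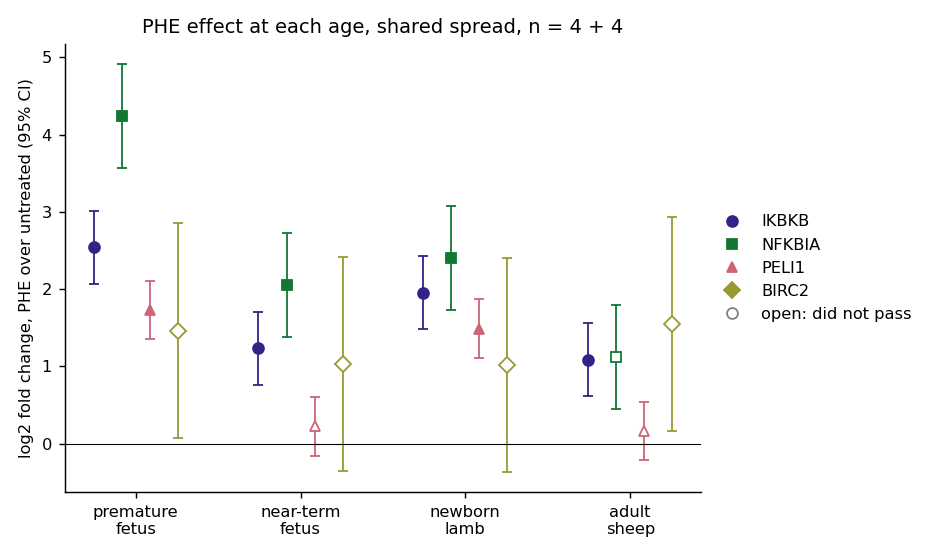
PHE effect on IKBKB, NFKBIA, PELI1 and the brighter BIRC2 probe at each age (y axis, log2 fold change of 4 PHE-treated over 4 untreated arrays; bars are 95% confidence intervals from limma's shared spread; open points did not pass). NFKBIA falls from 4.24 in the premature fetus to 1.12 in the adult. Because the fit gives each probe 1 spread, the intervals of a probe are equally wide at every age by construction.

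Whether PHE acted differently by age was tested with the interaction of treatment and age for each pair of ages. Against the premature fetus, the near-term effect was smaller by 1.31 for IKBKB (interaction -1.31, adjusted p = 0.025), by 2.18 for NFKBIA (-2.18, adjusted p = 0.0098) and by 1.51 for PELI1 (-1.51, adjusted p = 0.0038), where 4.16% of 10337 genes and probes passed in either direction. The adult effect was also smaller than the premature one for IKBKB (-1.46, adjusted p = 0.024), NFKBIA (-3.11, adjusted p = 0.00076) and PELI1 (-1.57, adjusted p = 0.0020), where 0.76% of 10258 passed. The IKBKB differences were the least firm of these: with the replicate number as a block their adjusted p was 0.054 and 0.072, each was lost with median scaling and normexp background correction, and the near-term difference was lost without any 1 of 3 arrays and the adult difference without any 1 of 7. The near-term difference for NFKBIA was lost with normexp (adjusted p = 0.052) and with slide as a fixed block (adjusted p = 0.057), and the adult difference for PELI1 with normexp (adjusted p = 0.12) and median scaling (adjusted p = 0.081).

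The newborn and premature effects, measured on arrays of 1 scan day, did not pass as different for any of the 4 genes, where 0.01% of 9978 passed. The difference for NFKBIA was -1.83 with a 95% interval from -2.78 to -0.88 (adjusted p = 0.39, limma), and it passed when those arrays were fitted alone (adjusted p = 0.013). The differences for IKBKB (-0.59, interval -1.26 to 0.08) and PELI1 (-0.24, interval -0.78 to 0.29) were smaller.

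PELI1 had the remaining called differences. Its effect was larger by 1.27 in the newborn lamb than in the near-term fetus (adjusted p = 0.0034, or 0.052 with the arrays of those ages alone), where 10.6% of 10224 passed, and smaller by 1.33 in the adult than in the newborn (-1.33, adjusted p = 0.031), where 0.0994% of 10059 passed. The second of these was lost with the replicate block (adjusted p = 0.11), with median scaling (adjusted p = 0.30) and without any 1 of 9 arrays. Between the adult and the near-term fetus, which share a scan day, no difference in PHE effect passed for any of the 4 genes, where 10.4% of 10016 passed. For NFKBIA that difference was -0.93 with a 95% interval from -1.88 to 0.02, and it passed with normexp (-1.43, adjusted p = 0.039). No interaction passed for BIRC2 at any pair of ages with the main setting, where the SE was 0.95 for the brighter probe at each pair and none of its unadjusted p-values was under 0.05. With normexp 3 of the 6 pairs passed, near-term minus premature at -2.19 (adjusted p = 0.032), newborn minus near-term at 2.31 (adjusted p = 0.012) and adult minus near-term at 2.45 (adjusted p = 0.013), so the BIRC2 differences that involve the near-term arrays depend on the setting.

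The untreated levels of IKBKB rose in order from the premature fetus (mean -1.41, SD 0.10) through the newborn lamb (-0.84, SD 0.10) and the near-term fetus (-0.01, SD 0.29) to the adult sheep (1.05, SD 0.20), and no neighbouring pair of these groups overlapped. The adult untreated arrays overlapped the treated newborn arrays (mean 1.11). In limma the near-term fetus was higher than the premature fetus by 1.40 (adjusted p = 3.0e-05, where 42.3% of 9592 passed), the adult by 2.46 (adjusted p = 1.2e-09, where 56.3% of 9991 passed) and the newborn lamb by 0.57, which did not pass (adjusted p = 0.11, where 10.9% of 9612 passed) except with array weights (0.60, adjusted p = 0.0018). The newborn was lower than the near-term fetus (-0.83, adjusted p = 0.0043, where 46.3% of 9351 passed), and the adult was higher than the near-term fetus by 1.07 (adjusted p = 0.00050, where 43.4% of 9441 passed) and than the newborn by 1.89 (adjusted p = 1.6e-07, where 52.2% of 9784 passed). A large share of all probes differed in most of these pairs. Age and slide cannot be told apart in any pair but the adult and the near-term fetus, whose untreated arrays share 2 slides, and the premature and newborn arrays differ in slide but not in scan day. Within those 2 slides untreated IKBKB was higher in the adult than in the near-term fetus by 1.09 (2 against 2 arrays) and by 0.80 (2 arrays against 1).

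Untreated NFKBIA followed a like order, with mean levels of 1.06 (premature), 1.43 (newborn), 2.35 (near-term) and 2.67 (adult), where the first and last neighbouring pairs overlapped. The near-term fetus was higher than the premature fetus by 1.29 (adjusted p = 0.0023) and the adult by 1.60 (adjusted p = 0.00015), the newborn was lower than the near-term fetus (-0.92, adjusted p = 0.021; lost with quantile normalization, where it was -0.70 with an adjusted p of 0.093, and without any 1 of 3 arrays) and the adult higher than the newborn by 1.24 (adjusted p = 0.0024), while the adult and the near-term fetus did not pass as different (0.31, adjusted p = 0.45), although they did with normexp (0.87) and median scaling (0.85). Untreated PELI1 lay between -1.79 and -1.27 in both fetuses and the newborn, and it was higher in the adult than in the newborn by 0.71 (adjusted p = 0.0020, limma), a call lost with normexp (0.50, adjusted p = 0.052). Its adult level was above the premature one by 0.52 (adjusted p = 0.017), which is under the 1.5-fold limit and passed it with quantile normalization (0.67), median scaling (1.09) and without adult untreated replicate 4 (0.62). Its adult level was above the near-term one by 0.48 (adjusted p = 0.035), also under that limit, and this passed with quantile normalization (0.60) and median scaling (1.02) but was -0.10 with normexp, which also made the newborn lower than the near-term fetus (-0.60, adjusted p = 0.022). For BIRC2 no difference between untreated groups passed in limma, and 1 of the 6 tested, the near-term fetus against the premature fetus (-1.52, adjusted p = 0.067), had an unadjusted p under 0.05. This depended on the setting, and the direction of the near-term differences is not settled. Near-term minus premature passed in limma with quantile normalization (-2.39, adjusted p = 0.0076) and array weights (-2.25, adjusted p = 0.010), and was 0.85 with normexp. It ranged from -2.30 to -0.69 when 1 array was left out. The end at -2.30 came without near-term untreated replicate 2, where no untreated near-term array left was well above background. That end is therefore no measured difference. Newborn minus near-term passed with quantile normalization at 1.96 (adjusted p = 0.024) and with normexp at -1.50 (adjusted p = 0.0035), and adult minus near-term at 1.83 (adjusted p = 0.035) and -2.01 (adjusted p = 0.00011). The adult level was lower than the premature one with the arrays compared alone (-1.38, adjusted p = 0.040), normexp (-1.16, adjusted p = 0.013) and array weights (-1.92, adjusted p = 0.00037), and lower than the newborn one with array weights (-1.43, adjusted p = 0.0069).

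Across all 8 groups the highest mean level was that of the PHE-treated adult for IKBKB (2.13, SD 0.54) and that of the PHE-treated premature fetus for NFKBIA (5.30, SD 0.35), PELI1 (0.39, SD 0.32) and the brighter BIRC2 probe (-1.27, SD 0.37). Their ranges overlapped those of the next group in order, which was the treated near-term fetus for IKBKB and NFKBIA and the treated newborn for PELI1 and BIRC2.

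The genes of the pathway and its targets were taken from a list of 104 gene symbols in 7 roles, in which IL8 and CXCL8 stand for a single gene, of which 41 carried a name on the array and 16 of those a name that does not depend on the study's list. Of the named genes bright enough to test, 33 of 39 rose and 1 fell in the premature fetus, 26 of 36 rose and 1 fell in the near-term fetus, 30 of 38 rose in the newborn lamb and 15 of 32 rose in the adult sheep, where 8.43%, 17.1%, 5.3% and 2.67% of all genes and probes tested rose. Of these rises 8, 14, 10 and 6 were of genes that were bright enough to test through the PHE-treated arrays alone, a filter that favours higher levels with PHE. List genes outside the 16 carry a name because the study listed them as altered, which also favours genes that changed. These counts are therefore a description. The median log2 fold changes of the list genes tested were 2.98, 1.96, 2.37 and 1.27, beside -0.09, -0.09, -0.08 and -0.05 over all genes and probes tested. With genes that have solely a lower bound set to it, the premature and newborn medians were 2.81 and 2.32. Among the 16 independently named genes, 14 of 15, 11 of 13, 12 of 15 and 7 of 10 rose at the 4 ages in that order, of which 6, 5, 7 and 3 were tested through the PHE-treated arrays alone. Over all named genes of the list, the near-term count fell from 26 to 9 when the near-term arrays were fitted alone and to 14 with normexp background correction, and the adult count fell from 15 to 7 with the adult arrays alone.

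Among genes that act upstream of the kinase, the receptor genes TLR2 and CD40 rose in both fetuses and the newborn, TLR2 by 3.71, 2.21 and 3.30 and CD40 by 2.31, 1.59 and 2.33, and both were too dim to test in the adult; TLR2 was well above background on 3, 1 and 2 of the 4 untreated arrays at those ages, and CD40 on 4, 2 and 3. TLR4, the receptor for endotoxin, rose in the premature fetus by 1.55 and did not pass at the other ages. For IRAK2, a kinase of the interleukin-1 receptor, 0 of 4 untreated arrays cleared the background mark in the premature fetus and 0 of 4 in the newborn, and it rose at least 7.40-fold and at least 4.94-fold; it rose in the adult by 2.42 (adjusted p = 0.020) and did not pass in the near-term fetus (1.52, adjusted p = 0.051, limma). BIRC3, the closest relative of BIRC2, rose at all 4 ages by 2.81, 2.09, 2.08 and 1.42 on the brighter of its 2 probes. BIRC2 passed at none with the main setting, with changes of 1.46, 1.03, 1.02 and 1.55 on its brighter probe. A difference between the 2 genes was not tested. MALT1, a protease of lymphocyte receptor signalling, was the 1 gene of the list that fell, with a change of -1.02 in the premature fetus and -0.80 in the near-term fetus.

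The NF-kB subunit genes named were NFKB1, NFKB2 and RELB. RELB rose by 4.04 in the premature fetus, 3.36 near-term and 3.19 in the newborn and did not pass in the adult (1.63, adjusted p = 0.092, limma). NFKB2 rose by 2.20, 2.53 and 1.33 at those ages, with 1 of 4 near-term untreated arrays well above background, and NFKB1 rose in the premature fetus by 1.70 and in the newborn by 1.30. Of the genes of the IkB family beside NFKBIA, NFKBIZ rose at all 4 ages by 5.37, 4.07, 3.56 and 3.33. It was well above background on 1 of 4 near-term and 3 of 4 adult untreated arrays. NFKBIE rose in the premature fetus by 3.06 and in the newborn by 2.22, and did not pass near-term (0.48) or in the adult (0.71).

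Of 20 named target genes, 15 of 18 tested rose in the premature fetus, 12 of 15 in the near-term fetus, 15 of 18 in the newborn and 9 of 13 in the adult, against the same 8.43%, 17.1%, 5.3% and 2.67% of all tested; 5, 5, 6 and 4 of these were tested through the PHE-treated arrays alone. For IL6, a cytokine, 0 of 4 untreated arrays cleared the background mark at each age but near-term, and in the premature fetus, newborn and adult it rose at least 1123-fold, 363-fold and 140-fold, and its near-term change was 7.36 with 1 of 4 untreated arrays above that mark. PTGS2, the inducible cyclooxygenase, rose by 5.80, 5.49, 5.10 and 4.31 at the 4 ages, and ICAM1, an adhesion molecule of endothelium, by 3.95, 3.99, 3.56 and 4.61, with 2 of 4 adult untreated arrays well above background. IRF1, a transcription factor of interferon responses, rose by 6.05, 4.60, 4.11 and 4.94, and PTX3, a secreted pattern recognition protein, by 3.64, 2.30, 2.44 and 4.16.

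Of the remaining independently named targets, CXCL8, a neutrophil chemokine, rose at all 4 ages by 8.53, 6.96, 8.63 and 5.77, and IL1B, a cytokine, by 8.84, 3.53, 7.75 and 3.47. Of the 4 untreated arrays, 4, 3, 3 and 2 were well above background for CXCL8 and 2, 4, 2 and 4 for IL1B at those ages. TNF rose in the premature fetus by 6.81, with 1 of 4 untreated arrays well above background, in the near-term fetus by 4.19 and in the newborn at least 17.9-fold, and it was too dim to test in the adult. CSF2, a growth factor of myeloid cells, rose at least 5.79-fold in the premature fetus and at least 6.48-fold in the newborn. CXCL10, a lymphocyte chemokine, rose in the premature fetus by 4.03 and did not pass in the newborn (-0.83). BCL2L1, a survival gene, did not pass at any age, with changes from -0.39 to 0.04, and SELE was too dim to test at all ages. Of targets named through the list, CCL2 rose by 5.69, 3.08, 5.20 and 3.49 and GADD45B by 3.89, 5.03, 3.10 and 3.91.

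**Figure D4:**
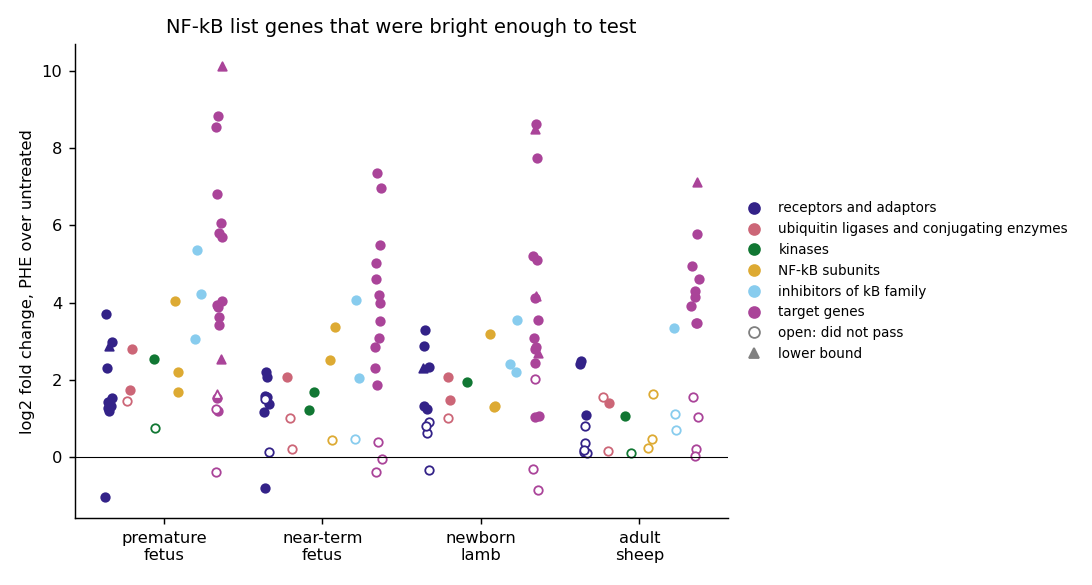
PHE effect on the named genes of the NF-kB list that were bright enough to test (y axis, log2 fold change of PHE-treated over untreated arrays) by age, coloured by role; open points did not pass and triangles are lower bounds. Target genes reach above 8 in the premature fetus, and receptors, ligases and kinases lie mostly between 0 and 3.

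The patterns of IKBKB and NFKBIA over the 32 arrays had a Pearson r of 0.80. The r was 0.74 for NFKBIA and PELI1, 0.57 for IKBKB and PELI1, and 0.55 for PELI1 and the brighter BIRC2 probe. With that probe it was 0.35 for NFKBIA and 0.09 for IKBKB. The arrays share treatment, age and slide, so these values describe the same group differences given above. Among 2065 named genes the patterns most like that of IKBKB were those of LOC105607409 (r = 0.96), ZFAND5 (0.94) and ATF4 (0.93). For NFKBIA they were IER3 (0.91), RELB (0.91) and HK1 (0.90), and for PELI1 they were UMPS (0.90), MAPK8 (0.85) and GPR98 (0.85). For the brighter BIRC2 probe they included TBC1D20 and LOC100851198 (both 0.72), and for the second probe they were STAR (0.91), ATAD2B (0.90) and AREG (0.77). The second probe was not well above background on 13 of 32 arrays. Near-term untreated replicate 4 (0.42) and PHE replicate 1 (-0.61) stood above all its other arrays. How far its r values rest on these arrays was not tested.

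Markers of other cells moved with PHE at some ages. The summed linear level of the 7 named of 14 leukocyte markers was 2.42 to 2.66 untreated and 3.48 to 5.97 with PHE in the premature fetus, 2.51 to 5.71 and 1.02 to 3.37 in the near-term fetus, 1.34 to 6.01 and 4.35 to 6.99 in the newborn, and 0.56 to 1.17 and 0.76 to 2.46 in the adult. The haemoglobin genes HBB and HBA1, markers of blood, summed to 28.3 to 51.7 untreated and 11.0 to 12.6 with PHE in the premature fetus, 12.8 to 23.2 and 1.53 to 7.67 in the near-term fetus, 23.9 to 38.4 and 12.9 to 17.0 in the newborn, and 2.64 to 9.48 and 2.66 to 4.21 in the adult. The smooth muscle markers CNN1 and CALD1, the 2 named of 10, summed to 30.7 to 38.1 untreated and 24.3 to 32.1 with PHE in the premature fetus and overlapped between treatments at every age. The 4 named of 6 fibroblast markers summed to 87.6 to 97.7 and 68.8 to 90.9 in the premature fetus, 20.0 to 77.6 and 44.0 to 128.1 in the near-term fetus, where 3 of them rose, 19.3 to 51.5 and 50.7 to 59.9 in the newborn, and 6.73 to 17.5 and 5.78 to 23.5 in the adult. The 4 named of 7 brain markers summed to 0.44 to 0.59 untreated and 0.28 to 0.37 with PHE in the premature fetus and overlapped at the other ages. The 3 named of 10 endothelial markers, KDR, TIE1 and EDN1, overlapped at every age. Single markers that passed in limma were few: in the premature fetus 0 of 7 leukocyte markers, 0 of 4 brain markers, 1 of 2 blood markers (lower) and 1 of 4 fibroblast markers (higher); in the near-term fetus, beside the 3 fibroblast markers, 1 endothelial marker rose, 1 leukocyte marker rose and 1 fell, and 1 blood and 1 brain marker fell; and in the newborn and the adult 1 leukocyte marker rose. The summed level of leukocyte markers was thus higher and those of blood and brain markers lower in the treated premature arteries, where IKBKB, NFKBIA and PELI1 had their largest fitted changes, and their part in these results was not tested.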

How the data were processed

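Total RNA of 32 MCA samples was measured on 1-colour (Cy3) arrays. The authors deposited scanner output from Agilent Feature Extraction 9.5.3.1, whose processed signal is an intensity, background-subtracted by that software, together with the deposited flags for outlier spots and for spots well above background; a deposited series table holds the same intensity values. The genome build is not given in the sources used here. Signals were expressed relative to the 75th percentile of non-control spots on the same array, outlier spots were left out, and spots of a probe were averaged on the log2 scale, which was computed here from the deposited intensity. Gene names came from accessions (543 probes), from the study's list of altered genes by matching its printed group means within a relative tolerance of 2e-05 (1888; its premature means, printed to 2 decimals, within that rounding) and from the array files (436), and 12141 probes stayed unnamed. The near-term means of that list were matched with PHE replicate 1 left out, and with all 4 PHE arrays 0 of 1106 matched, so the list leaves that array out. With all its means raised by a small factor, 137 of the 1269 premature entries still matched a single probe and 0 did at the other ages, so the 137 names that rest on the premature columns alone, 1 of them in the NF-kB list (CCL5) and none of the members, may in part be chance matches. The brightest probe stood for a gene. Some list genes, among them TLR2, TLR4, CD40, BIRC3, CXCL8, PTX3 and PTGS2, have a further probe whose values are not given.

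limma 3.58.1 in R 4.3.3 fitted 8 group means, with 24 residual degrees of freedom. A probe was tested if, in at least 1 group of a comparison, each of the 4 arrays exceeded background clearly, and p-values were adjusted by Benjamini-Hochberg over all of them. The prior spread was estimated from all probes. Its estimation from the tested probes alone was also run, both values were known when the first was kept as the setting written first, and the second is given as an alternative. Where no array of a group was well above background, a fold is a lower bound. The number of arrays limits the precision, and p-values measure the spread between arrays, which may in part be technical. On simulated arrays for the premature comparison (9818 genes and probes), 51 of 100 genes changed by 1 on the log2 scale were called. Of 100 genes changed by 2, 88 were called, and there were 4 false calls. How far these counts hold where the spread between arrays differs by age, as it does in these data, was not tested. Same-numbered samples deviated together in the premature fetus (r of 0.36 to 0.55 over 6931 genes) and the newborn (0.50 to 0.60), not in the near-term fetus (-0.19 to 0.33) or the adult (-0.10 to 0.04). In the premature fetus and the newborn, same-numbered samples also lay in the same column of their slide. Replicate number and slide column cannot be told apart there.

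The members, the gene lists and the tests were chosen with earlier results of these data known. The genes named are the 4 members, each independently named gene of the NF-kB list, and, of those named through the study's list, the 3 largest rises and falls at each age; BIRC3, the subunit genes and NFKBIE were added after their values were seen. Exact permutation tests, other scalings, filters, blocks, weights, Welch's test of the methods and each array left out were the alternatives. Probe sequences and coordinates were not used here.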

Additional observations from a re-analysis of the deposited data

Results flagged for a closer look

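On 3 of 40 sets of 4 arrays, 5 probes in 8 groups, 1 array lay far from the other 3 by Dixon's criterion, which chance meets in about 1 of 20 sets. These were IKBKB on near-term PHE replicate 3 (0.40), the brighter BIRC2 probe on premature untreated replicate 1 (-3.54) and the second BIRC2 probe on premature PHE replicate 1 (-5.56).

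PHE effects differed between ages, by the interaction in limma, in 8 cases. Against the premature fetus the near-term effect differed by -1.31 for IKBKB, -2.18 for NFKBIA and -1.51 for PELI1, where 4.16% of all genes and probes tested passed. The adult effect differed from the premature one by -1.46, -3.11 and -1.57 for the same genes, where 0.76% passed. The PELI1 effect differed by 1.27 between the newborn and the near-term fetus, where 10.6% passed. Between the adult and the newborn it differed by -1.33, where 0.0994% passed.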

How the results depend on the processing

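The PHE effects kept their direction and their side of the threshold in 283 of 308 alternatives that changed a setting and in 538 of 544 fits that left out 1 array. The rises of IKBKB, NFKBIA and PELI1 in the premature fetus and in the newborn lamb passed under every alternative run. Where a call changed, the cause was not tested. With the arrays compared fitted alone, BIRC2 passed in the premature fetus (1.46) and the newborn (1.02), IKBKB did not pass near-term (1.23) or in the adult (1.08), nor NFKBIA near-term (2.05). The counts of list genes that rose were then 9 near-term and 7 in the adult, and leaving out near-term PHE array 1 as well, chosen after seeing the data, gave 1.18 for IKBKB, 2.26 for NFKBIA, neither passing, and 9 list genes. The methods' Welch test gave like calls on the same log2 changes: unadjusted, BIRC2 passed in the premature fetus (1.46) and newborn (1.02), and adjusted, BIRC2 passed in the premature fetus (1.46) while IKBKB near-term (1.23), NFKBIA near-term (2.05) and IKBKB in the adult (1.08) did not. BIRC2 in the premature fetus (1.46) also passed the exact permutation test. Estimating the prior spread from the tested probes, chosen after seeing the data, made NFKBIA pass in the adult (1.12), and array weights did so too (1.20). With array weights BIRC2 passed in the premature fetus (1.39) and adult (1.90) and IKBKB did not near-term (0.72). With median scaling IKBKB did not pass in the adult (1.00). Normexp turned the near-term changes of PELI1 (-0.24) and of both BIRC2 probes (-1.54 and -1.08), and slide as a block turned that of the second BIRC2 probe (-3.14 fixed, -0.79 random).

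Of differences of PHE effects between ages, those for BIRC2 changed sign most. Near-term minus premature, with normexp, gave -0.77 for IKBKB and -1.67 for NFKBIA, neither passing, and -2.19 for BIRC2, which passed; IKBKB also did not pass with median scaling (-1.34), the arrays compared (-1.31), the replicate block (-1.31), or slide as a fixed (-0.95) or random block (-1.16), nor NFKBIA with slide fixed (-1.81), and BIRC2 turned with the mean of its probes (0.35) and array weights (0.15). Newborn minus premature for NFKBIA passed with the arrays compared (-1.83) and array weights (-1.92), and BIRC2 turned with normexp (0.12). Adult minus premature did not pass for IKBKB with normexp (-0.93), median scaling (-1.42) or the replicate block (-1.46), nor for PELI1 with normexp (-1.11) or median scaling (-1.53), and BIRC2 turned with quantile normalization (-0.29), the mean of its probes (-0.41) and slide fixed (-0.34) or random (-0.18). Newborn minus near-term passed for IKBKB with array weights (1.22), turned for NFKBIA with normexp (-0.26) and slide fixed (-0.023), did not pass for PELI1 with the arrays compared (1.27), and turned for BIRC2 with normexp (2.31), where it passed, and with median scaling (0.12), the floor (0.011) and slide fixed (0.76) or random (0.26). Adult minus near-term turned for IKBKB with array weights (0.31), passed for NFKBIA with normexp (-1.43), turned for PELI1 with normexp (0.46), quantile normalization (0.0012) and median scaling (0.011), and for BIRC2 passed with normexp (2.45) and turned with quantile normalization (-0.12) and the mean of its probes (-0.75). Adult minus newborn passed for IKBKB with array weights (-0.92), did not pass for PELI1 with normexp (-1.04), median scaling (-1.39), the replicate block (-1.33) or slide fixed (-1.39), and turned for BIRC2 with the mean of its probes (-0.29). The replicate block changed no other call. Among untreated arteries normexp turned BIRC2 near-term minus premature (0.85), newborn minus near-term (-1.50) and adult minus near-term (-2.01), of which the last 2 passed, and PELI1 adult minus near-term (-0.10).

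Leaving out 1 array at a time moved the PHE effect from 0.20 to 1.81 for BIRC2 near-term, from 0.21 to 2.30 for its second probe and from 0.88 to 1.53 for NFKBIA in the adult. The effect also moved from 0.076 to 0.40 for PELI1 near-term. In the adult it moved from 0.055 to 0.27 for PELI1 and from 1.16 to 2.13 for BIRC2. Differences ranged, near-term minus premature, from -1.43 to -1.04 (IKBKB) and -1.26 to 0.35 (BIRC2); adult minus premature, from -1.64 to -1.22 (IKBKB) and -0.30 to 0.67 (BIRC2); newborn minus near-term, from -0.79 to 0.81 (BIRC2); adult minus near-term, from -0.42 to 0.084 (IKBKB), -0.24 to 0.085 (PELI1) and -0.26 to 1.35 (BIRC2); and adult minus newborn, from -1.43 to -1.22 (PELI1). The untreated BIRC2 difference, adult minus near-term, ranged from -0.69 to 0.92. Each range of the brighter BIRC2 probe that involves the near-term arrays has an end from the fit without near-term untreated replicate 2. There no untreated near-term array left was well above background, so that end is no measured change. With names independent of the study's list the counts of list genes that rose were 14, 11, 12 and 7, fewer because fewer genes carry such names, and normexp gave 14 near-term. The brighter BIRC2 probe was below the background mark on 3 near-term untreated arrays, and the second on 13 of 32 arrays.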
